A study of Mus musculus with 8 samples.

Results

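Cap1, Zmpste24, Smap2, Rlf, Nfyc, Mycl, Rhbdl2 and Hivep3 are 8 protein-coding genes of mouse chromosome 4 that lie in one stretch of the gene order. They are described here from belly skin of mice carrying a transgene for hurpin, the human inhibitor of cathepsin L, and of wildtype mice. The members were chosen by the transgenic minus wildtype difference of probe sets in this neighbourhood and by their position, so that difference is given as a description with no test. Of 45037 probe sets that are not array controls, 19 were annotated to exactly 1 of the 8 symbols. Of these, 13 passed the level filter, a mean of at least 6.45 on the scale used throughout, log2(intensity + 21.8), as did 27022 probe sets in all.

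Both groups were 8 months old and of mixed sex. The transgenic group held 4 animals, females 7 and 84 and males 11 and 17. The wildtype group held 3, males 26 and 28 and female 29. Female 29 has 2 arrays, which were averaged; per the labels 1 wildtype sample served for both, and whether they share one RNA preparation is not given in the sources used here. The promoter that drives the transgene, the founder line and the strain of either group are not given in the sources used here. Animals are separate mice, so the spread between them is biological as well as technical. In whole skin, fewer cells of a type and less RNA per cell cannot be told apart.

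Each of the 8 arrays had the same trimmed mean intensity, 500.0, and total intensities ran from 34785081 to 37857733. The number of arrays limits the precision. Skin markers bore out the tissue label: 37 of 39 marker genes for 9 cell types had a probe set, and all 37 passed the filter. Fabp4, a fatty acid carrier of adipocytes, was the single marker gene of the 37 whose groups did not overlap (log2 difference 0.38). Summed adipocyte signal ran from 15.35 to 15.76 in transgenic and from 15.14 to 15.24 in wildtype animals. That sum holds the 2 of 4 adipocyte markers with a probe set. Fabp4 is the brighter of them, so the sum is not separate from the Fabp4 difference. Summed hair shaft signal was 12.59 in transgenic 17 and 8.70 in wildtype 26, and 15.23 to 16.8 in the other 5 animals, so 1 male of each group stood apart. The 3' to 5' ratio of the Gapdh control, a measure of how complete the labelled RNA was, stood at 17.2 and 13.8 in females 84 and 7 and at 4.68 and 1.45 in males 17 and 11 of the transgenic group, against 0.927 to 1.41 on wildtype arrays. Their part in the results was not tested. For each member probe set whose groups did not overlap, the difference from a fit that also holds the log2 Gapdh ratio (the Gapdh covariate) is given too. Each transgenic ratio exceeded each wildtype ratio, so this fit cannot fully tell group and ratio apart. Its differences are not values corrected for RNA completeness.

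The genes have unrelated roles. Cap1 encodes cyclase-associated protein, which binds actin monomers and works with cofilin to recycle filaments. Zmpste24 encodes the zinc metalloprotease that trims farnesylated prelamin A to mature lamin A of the nuclear lamina. Nfyc encodes a subunit of NF-Y, the factor that binds the CCAAT box of promoters. Smap2 is a GTPase-activating protein for Arf, a small GTPase of membrane traffic, and Rlf a large zinc finger protein. Mycl is a member of the Myc family of transcription factors, Rhbdl2 a rhomboid protease that cuts within membranes, and Hivep3 a zinc finger protein also called Schnurri-3.

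In the RefSeq gene order of assembly GRCm38.p6, Hivep3 came first and Rhbdl2 last of 88 genes, 43 of them protein-coding. Nfyc stood at place 20, Smap2 at 29, Zmpste24 at 32, Rlf at 37, Cap1 at 56 and Mycl at 59. Other genes lie between the members throughout.

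RefSeq upstream windows were at hand for 7 of the 8 genes, 10 windows in all. The windows below are shown because these 4 genes hold both directions of the difference: Cap1 was lower in transgenic skin, and Zmpste24, Rlf and Nfyc were higher. Each run gives the 250 bases before a RefSeq start in GRCm38.p6, 5′ to 3′ on the gene's strand. Capitals mark CCAAT or its reverse ATTGG, the letters of the box that NF-Y binds, and CACGTG, the E-box letters known for Myc family factors. Nfyc has 3 windows, of which the one with the most matches is shown.
Cap1 (chr4:122886077-122886326, strand -): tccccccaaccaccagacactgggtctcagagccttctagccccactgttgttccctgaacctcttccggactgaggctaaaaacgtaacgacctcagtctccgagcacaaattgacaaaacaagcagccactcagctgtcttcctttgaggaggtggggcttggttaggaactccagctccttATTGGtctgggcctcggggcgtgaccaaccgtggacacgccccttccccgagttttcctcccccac
Zmpste24 (chr4:121098211-121098460, strand -): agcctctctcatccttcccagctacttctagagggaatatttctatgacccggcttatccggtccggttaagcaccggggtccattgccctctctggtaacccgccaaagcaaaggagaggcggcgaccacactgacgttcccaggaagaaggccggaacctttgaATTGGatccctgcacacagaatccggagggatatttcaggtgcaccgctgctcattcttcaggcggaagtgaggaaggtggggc
Rlf (chr4:121215085-121215334, strand -): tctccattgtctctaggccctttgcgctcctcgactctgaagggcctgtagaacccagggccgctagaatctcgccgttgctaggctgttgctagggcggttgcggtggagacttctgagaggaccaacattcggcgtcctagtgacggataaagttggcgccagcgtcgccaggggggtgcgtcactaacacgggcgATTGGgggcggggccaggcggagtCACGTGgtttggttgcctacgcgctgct
Nfyc (chr4:120825210-120825459, strand -): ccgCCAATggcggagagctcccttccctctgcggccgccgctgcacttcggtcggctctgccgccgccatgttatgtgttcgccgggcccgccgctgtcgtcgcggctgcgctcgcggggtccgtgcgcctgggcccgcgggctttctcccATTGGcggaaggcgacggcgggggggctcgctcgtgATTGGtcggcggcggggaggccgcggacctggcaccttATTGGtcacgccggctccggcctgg

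All 4 windows shown held CCAAT letters on one strand or the other. The windows of Hivep3 and Mycl, not shown, held none, as did another window of Nfyc. Rhbdl2 had a window with a match and another without. In Cap1 the match began 66 bases before the start, in Zmpste24 84 and in Rlf 52, and Rlf also held CACGTG 28 bases before its start. The Nfyc window shown held 4 CCAAT matches. Over the 10 windows of the members, 6 held CCAAT or ATTGG and 1 held CACGTG. Among 32851 RefSeq windows of the same length these shares were 33.8% and 6.0%. A match of letters is a description and not a site.

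Cap1 was the gene with the greatest difference. Probe set 1417462_at had deposited intensities of 27.5, 43.5, 8.3 and 228.5 in transgenic 7, 11, 17 and 84. Its wildtype intensities were 2376.5 in animal 26, 2243.9 in animal 28, and 1992.1 and 2888.1 on the arrays of animal 29. All transgenic values were low and the groups lay far apart, with transgenic 84 nearest to wildtype. On the log2 scale the means were 6.13 ± 1.31 in transgenic (SD, n = 4) and 11.21 ± 0.05 in wildtype skin (SD, n = 3), a difference of -5.07 (SE 0.604). It was the lowest difference of all 27022 probe sets, and the values of transgenic 17 (4.91) approached the floor of the scale (4.45), so its size depends on the constant added.

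The second Cap1 probe set, 1417461_at, had intensities of 77.3, 142.7, 75.8 and 1799.5 in transgenic 7, 11, 17 and 84. Wildtype arrays gave 4034.0, 3970.0, 3989.3 and 4630.0. Transgenic 84 thus lay much closer to wildtype here than by the other probe set, yet the groups did not overlap, with a gap of 1.13 on the log2 scale. The difference was -4.15 (SE 0.909), the second lowest of all, from 12.01 ± 0.06 to 7.86 ± 2.01 (SD, n = 3 and 4). With the arrays of animal 29 averaged, wildtype animals differed little among themselves in both probe sets, while the transgenic SD was 1.31 and 2.01. Those arrays differed by 0.53 in 1417462_at and 0.21 in 1417461_at on the log2 scale. Without transgenic 84 the group differences were -5.68 and -5.14. With the Gapdh covariate they were -5.96 and -5.56. The part of the Gapdh ratio in the Cap1 values was not tested.

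**Figure D1:**
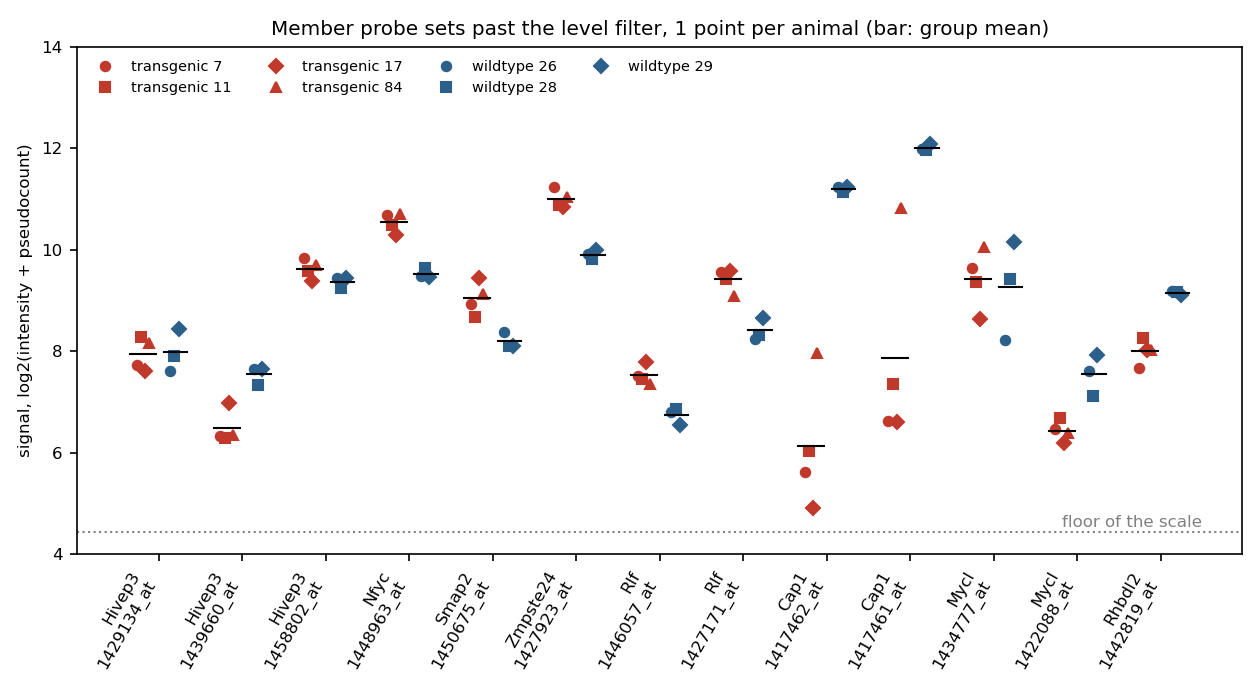
Signal of the 13 member probe sets past the level filter on the log2(intensity + 21.8) scale (vertical axis), 1 point per animal, transgenic in red and wildtype in blue, with a bar at each group mean. Cap1 lies below wildtype in every transgenic animal with a gap of 3.18 and 1.13, while Nfyc, Smap2, Zmpste24 and Rlf lie above it.

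Zmpste24 lay higher in transgenic skin. Its single probe set had intensities of 2386.1, 1857.0, 1825.8 and 2102.3 in transgenic 7, 11, 17 and 84 and of 941.0, 873.6, 1057.4 and 944.4 on the wildtype arrays. The lowest transgenic array was thus well above the highest wildtype array. Log2 means were 11.00 ± 0.18 (SD, n = 4) and 9.90 ± 0.10 (SD, n = 3), a difference of 1.10 (SE 0.149) or 2.14-fold. With the Gapdh covariate it was 0.89.

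Nfyc and Smap2, which precede Zmpste24 in the gene order, and Rlf, which follows it, also lay higher in transgenic skin. Nfyc measured 1622.7, 1426.2, 1239.3 and 1640.5 in transgenic 7, 11, 17 and 84, against 693.7, 774.4, 666.8 and 704.0 on wildtype arrays. No value of one group reached the other, and the log2 difference was 1.02 (SE 0.154), 2.02-fold, and 0.84 with the Gapdh covariate. Smap2 measured 469.6, 385.7, 680.0 and 534.8 in transgenic and 311.9, 254.2, 290.6 and 219.3 on wildtype arrays. Its transgenic values spread more widely (log2 SD 0.33), and the difference was 0.85 (SE 0.214), 1.80-fold, and 0.66 with the Gapdh covariate.

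Rlf had 3 probe sets. In 1427171_at, intensities were 739.0, 667.9, 742.0 and 527.2 in transgenic 7, 11, 17 and 84 and 283.3, 296.9, 374.9 and 391.5 on wildtype arrays. Transgenic 84 was the lowest of its group but still above each wildtype array. The difference was 1.01 (SE 0.189), 2.01-fold, and 1.12 with the Gapdh covariate. The dimmer 1446057_at stood at 7.52, 7.45, 7.79 and 7.35 on the log2 scale in transgenic 7, 11, 17 and 84 against 6.80, 6.87 and 6.54 in wildtype 26, 28 and 29. It gave 0.79 (SE 0.22), and 0.87 with the Gapdh covariate. The third, 1439555_at, did not pass the filter. It gave -0.28 with overlapping groups and intensities from 2.5 to 80.7, and wildtype 26 alone set its sign (0.36 without that animal).

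Mycl lay lower in transgenic skin in 2 of 3 probe sets, Rhbdl2 in 1 of 3 and Hivep3 in 1 of 5, and the groups overlapped in the rest. For Mycl, 1422088_at stood at 6.43 ± 0.20 in transgenic (SD, n = 4) and 7.55 ± 0.41 in wildtype skin (SD, n = 3), a difference of -1.12 (SE 0.272), or -0.99 with the Gapdh covariate. Its transgenic intensities (51.8 to 81.2) all lay under the wildtype ones (117.1 to 287.9). The brighter Mycl probe set 1434777_at gave 0.16 (SE 0.463), with transgenic intensities from 377.0 to 1047.7 inside the wildtype range of 279.1 to 1208.8. Its sign changed under 5 of 16 alternatives. The third, 1422087_at, below the filter, gave -1.24 with separate groups, -0.28 with the Gapdh covariate, and groups that overlapped when array 1 alone stood for wildtype 29.

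Rhbdl2 probe set 1442819_at measured 183.7, 283.9, 236.9 and 240.1 in transgenic 7, 11, 17 and 84 and 563.1, 551.5, 482.5 and 579.8 on wildtype arrays. Every transgenic value lay under every wildtype value, with a difference of -1.16 (SE 0.182) and a wildtype level 2.23 times the transgenic. With the Gapdh covariate it was -0.89. The other probe sets of Rhbdl2 did not pass the filter and gave 0.12 and 0.36, with overlapping groups. For Hivep3, 1439660_at measured 58.3, 57.0, 104.1 and 59.8 in transgenic and 178.4, 140.3, 165.0 and 194.0 on wildtype arrays. Transgenic 17 stood nearest to wildtype, and the difference was -1.06 (SE 0.262), or -1.005 with the Gapdh covariate. Its other 4 probe sets, 2 of them past the filter, gave -0.04 to 0.37 and overlapped between groups, so the gene as a whole had no single direction.

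Among the 13 probe sets past the filter, groups did not overlap in 5 that were higher (Nfyc, Smap2, Zmpste24 and Rlf with 2) and 5 that were lower in transgenic skin (Cap1 with 2, Mycl, Rhbdl2 and Hivep3). Over all probe sets these shares were 4.58% and 6.71%. Nothing is read from the comparison, since the members were picked for this contrast. Both counts were 5 without any one animal in turn, except 6 higher without transgenic 17. The median log2 difference of the 13 was 0.16, beside 0.001 over all probe sets.

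**Figure D2:**
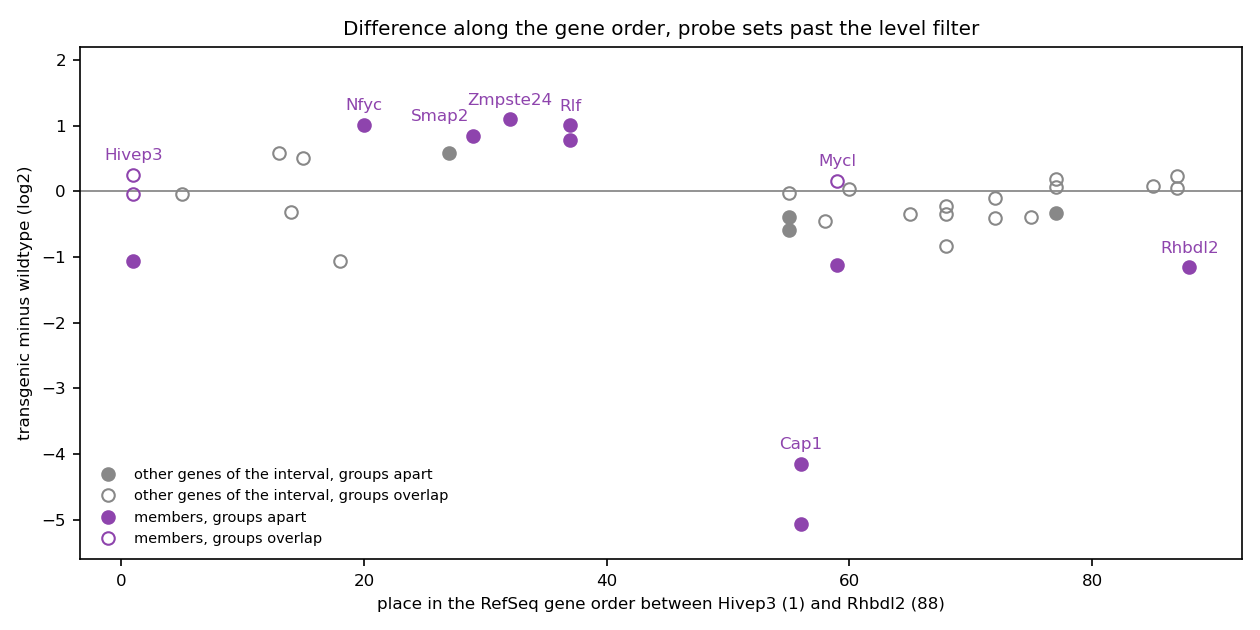
Transgenic minus wildtype difference (log2, vertical axis) of probe sets past the filter by place in the RefSeq gene order from Hivep3 at 1 to Rhbdl2 at 88 (horizontal axis). Members are purple, other genes grey, and filled points mark groups that do not overlap: Nfyc to Rlf stand between 0.79 and 1.10, and Cap1 at -5.07 and -4.15.

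**Figure D3:**
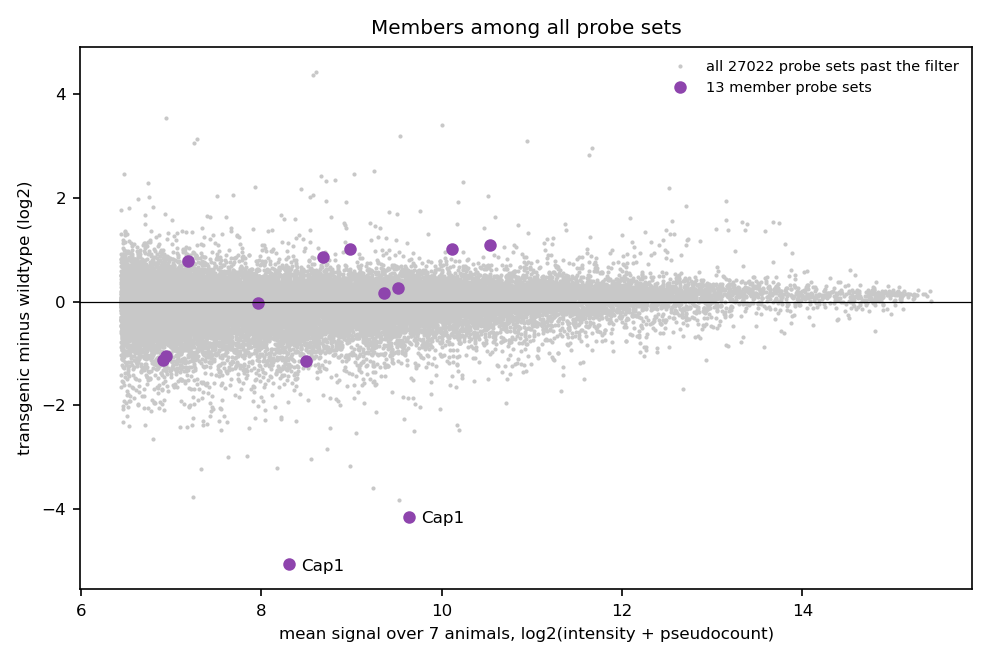
Transgenic minus wildtype difference (log2) against mean signal over 7 animals for all 27022 probe sets past the filter (grey) and the 13 member probe sets (purple). The Cap1 probe sets are the lowest points, and the other members lie between -1.16 and 1.10.

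The other genes of the stretch were taken by their position between the outermost members. They are what remained once the members, picked partly by value, were set aside, so their counts are not free of that choice. They numbered 24 with a probe set, and 24 of their 39 probe sets, for 16 genes, passed the filter. With limma and Benjamini-Hochberg adjustment 0 of the 24 were called transgenic against wildtype (0.0148% over all probe sets), and 4 had an unadjusted p under 0.05, 2 higher and 2 lower (11.7% over all, here 16.7%). Groups did not overlap in 1 higher and 3 lower (4.17% and 12.5% of the 24, beside 4.58% and 6.71% over all probe sets). The median difference was -0.16.

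Exo5, an exonuclease of DNA repair that lies between Nfyc and Smap2, was the higher one. It stood at 8.61, 8.57, 8.30 and 8.66 in transgenic 7, 11, 17 and 84 and 7.75, 8.09 and 8.04 in wildtype 26, 28 and 29. The groups were apart by 0.22, and the difference was 0.58 (limma adjusted p = 0.333). Ppt1, the lysosomal palmitoyl-protein thioesterase that directly precedes Cap1 in the gene order, lay lower in 2 probe sets, with differences of -0.39 and -0.58 (limma adjusted p = 0.375 and 0.357), and gave -0.03 in one more past the filter. Macf1, a linker of microtubules and actin, gave -0.32 in one probe set (limma adjusted p = 0.442) and 0.06 and 0.19 in its others. None of these passed. Under the Gapdh covariate the 4 at an unadjusted p under 0.05 became 0, while the same count over all probe sets went from 3161 to 851. The count of 4 became 1 without wildtype 29 and 2 without transgenic 7 or transgenic 84. Between Rlf and Cap1, no non-member other than Ppt1 had a probe set past the filter.

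In most probe sets of partner genes and relatives of the members the groups overlapped. Over 7 lists with 69 measured genes, 125 probe sets passed the filter and limma called 0. At an unadjusted p under 0.05 there were 5 higher and 19 lower (4.0% and 15.2%). Over all probe sets 3.77% were higher and 7.93% lower, so more lower than higher held there too, with a smaller lower share than in the lists. The lists' 24 became 5 in all under the Gapdh covariate, and 37 without transgenic 11. Groups did not overlap in 4.0% higher and 12.0% lower, beside 4.58% and 6.71% over all probe sets. Actin turnover genes, the partners of Cap1, gave 1 higher and 10 lower of 42 at an unadjusted p under 0.05 (26.2%, beside 11.7% over all), with a median difference of -0.05. Wdr1, Coro1c and Gmfb each recur among the lower probe sets. Cfl1, Wdr1 and Limk2 were lower in dimmer probe sets only by this count or overlapped in their most abundant, at 0.30, -0.02 and -0.04. Actb, Coro1c and Ssh3 were lower in their most abundant. Actb, cytoplasmic beta-actin, stood at 12.07, 13.12, 12.35 and 12.23 in transgenic 7, 11, 17 and 84 and at 13.58 ± 0.15 in wildtype skin (SD, n = 3) by its most abundant probe set (difference -1.13), and its other gave -0.08. Transgenic 11, with the lowest Gapdh ratio of its group, was nearest to wildtype, and the part of that ratio was not tested. Coro1c, a coronin, gave -0.67, and Gmfb, of the cofilin-related family, gave 0.50 in its most abundant and -1.30 and -0.91 in dimmer probe sets.

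Prelamin processing and nuclear lamina genes, the partners of Zmpste24, gave 3 higher and 0 lower of 29 at an unadjusted p under 0.05 (10.3%, near the 11.7% over all), with a median of -0.11. Lmna, which encodes the prelamin A that Zmpste24 cuts, disagreed between probe sets. Its 1457670_s_at stood at 11.98, 11.35, 11.97 and 12.15 in transgenic 7, 11, 17 and 84 against 11.16 ± 0.10 in wildtype skin (SD, n = 3), a difference of 0.71. The probe sets 1421654_a_at and 1425472_a_at gave -0.24 and -0.14 and the dimmer 1426868_x_at gave 0.51, each with overlapping groups. Lemd3, a lamina-binding protein of the inner nuclear membrane, gave 0.23.

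The partners of Nfyc in the NF-Y trimer, Nfya and Nfyb, had 3 probe sets past the filter, 0 of them at an unadjusted p under 0.05, with differences from -0.16 to -0.04. A dim Nfya probe set below the filter, 1422082_a_at, gave -1.37. At an unadjusted limma p under 0.05 the Myc network gave 0 higher and 3 lower of 20 (15.0%, beside 11.7% over all). These 3 were dimmer probe sets of Mxd4, Mxi1 and Mlx, whose most abundant gave 0.075, -0.05 and -0.22 with overlapping groups. Arf GAPs, the relatives of Smap2, gave 1 higher and 5 lower of 19 at that p (31.6%, beside 11.7% over all), with Asap2 at 0.75 and Arfgap2 at -0.44. The lower ones were probe sets of Smap1, Arfgap2 and Agap1, with Smap1 and Arfgap2 recurring. The most abundant probe sets of Smap1 and Agap1 gave 0.02 and -0.22 with overlapping groups. Other probe sets of Arfgap2 gave -0.86, -0.005 and 0.07. Among 9 rhomboid family probe sets 0 were higher and 1 lower at that p (11.1%, near the 11.7% over all). That one was Rhbdf2, an inactive rhomboid that guides the shedding protease of growth factors, with 5.27, 7.13, 7.64 and 5.31 in transgenic 7, 11, 17 and 84 and 8.35 ± 0.13 in wildtype skin (SD, n = 3), a difference of -2.01. Its levels were lower in the animals with the higher Gapdh ratios, 7 and 84, and the part of that ratio was not tested. Rhbdd1 gave 0.31. The relatives of Hivep3, Hivep1 and Hivep2, had 3 probe sets with differences from -0.30 to 0.16.

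Sex was not used in choosing the members, so it was tested. In the transgenic group both females, 7 and 84, had higher Gapdh ratios (13.8 and 17.2) than males 11 and 17 (1.45 and 4.68). Within that group sex and this ratio cannot be told apart. In a limma model with group and sex, 0 of the 13 member probe sets were called female against male (61 of 27022, 0.226%, over all), and 1 had an unadjusted p under 0.05 (10.9% over all). That was Mycl 1434777_at, with 9.64, 10.06 and 10.15 in females 7, 84 and 29 and 9.37, 8.64, 8.23 and 9.42 in males 11, 17, 26 and 28. Males 17 and 26, which also had the lowest hair shaft signal, were the lowest, while males 11 and 28 lay close to female 7. The part of the hair shaft signal in this difference was not tested. Females exceeded males by 1.04 (95% confidence interval 0.30 to 1.78), which did not pass over all probe sets (limma adjusted p = 0.351). For Zmpste24 the difference was 0.22 (interval -0.08 to 0.53), for Nfyc 0.14 (-0.21 to 0.49) and for Rhbdl2 -0.20 (-0.61 to 0.22). Cap1 gave 0.82 and 1.09 with wide intervals (-0.48 to 2.12 and -0.92 to 3.10). In both Cap1 probe sets female 84 was the highest transgenic animal, while female 7 lay between males 17 and 11.

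**Figure D4:**
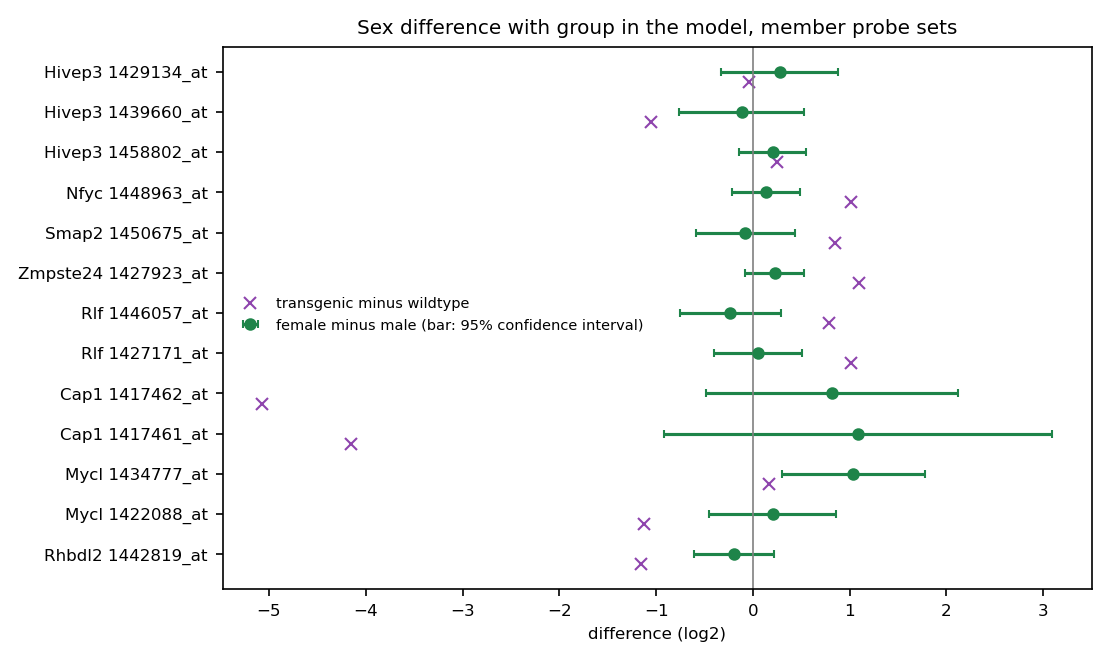
Female minus male difference (log2, horizontal axis) of the 13 member probe sets with group in the model, as green points with 95% confidence intervals, and transgenic minus wildtype as purple crosses with no interval. The interval of Mycl 1434777_at, from 0.30 to 1.78, is the single one that does not include 0.

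Whether the transgenic minus wildtype difference itself differed between sexes was tested with limma as an interaction, in which wildtype females are 1 animal. Transgenic females also had the higher Gapdh ratios of their group, so this term cannot fully tell sex and ratio apart. The interaction test called 0 member probe sets, and 0% of all, with 0 members and 2.86% of all at an unadjusted p under 0.05. Interaction terms ran from -0.66 to 1.64. For Zmpste24 the term was 0.14 (95% confidence interval -0.54 to 0.83) and for Nfyc 0.39 (-0.34 to 1.11). For Cap1 1417462_at it was 1.27, and its interval, -1.42 to 3.96, spans large differences in either direction. Of the transgenic females, only 84 lay above both transgenic males in this probe set.

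The arrays of wildtype 29 give the spread within one animal. Over all probe sets past the filter the arrays differed by a median of 0.19 in absolute log2 value, and over the 13 members by 0.23. For Zmpste24 array 2 minus array 1 was -0.16, for Nfyc 0.08 and for Smap2 -0.37. It was 0.53 and 0.21 for Cap1 and 0.70 for Mycl 1422088_at, the last of these beside a group difference of -1.12.

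Patterns most like those of Cap1 and Zmpste24 were looked for among the most abundant probe sets of 13551 other genes over the 7 animals, as a description, with the group difference shared by all points. For Cap1 these were Raph1, Cradd, Phrf1, Ercc3 and Nop9, with Pearson's r from 0.93 to 0.94. Their transgenic minus wildtype differences, -0.21 to -0.62, were far smaller than that of Cap1. For Zmpste24 they were Rab40b, Btbd19, Zfp961, En2 and Mbd1 (r from 0.97 to 0.98), with differences from 0.38 to 1.14. Of these 5, Btbd19 alone also lies on chromosome 4, outside the stretch. It stood at 9.59, 9.18, 9.45 and 9.45 in transgenic 7, 11, 17 and 84 and at 8.52, 8.04 and 8.27 in wildtype 26, 28 and 29.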

How the data were processed

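Total RNA of belly skin was hybridised to Affymetrix mouse arrays after one-cycle labelling, per the labels. The authors deposited linear intensity values and name MAS5, per the submitters' processing notes; its version is not given in the sources used here. There were 45101 probe sets, 64 being array controls. The platform annotation gave 34945 probe sets 1 symbol, 932 several and 9160 none; only the first kind were named. Gene order and upstream windows are from RefSeq, GRCm38.p6.

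Values were taken as log2(intensity + 21.8), the constant being the 20th percentile of all values. The 2 arrays of wildtype 29 were averaged, and probe sets below the 40th percentile of mean level were left out. limma 3.58.1 in R 4.3.3 fitted all 27022 probe sets (eBayes with trend, 2-sided, Benjamini-Hochberg over all, threshold 0.05), with group, with group and sex, or with their product. The pipeline was tested on simulated data. Named genes were all members, the other genes of the stretch whose groups did not overlap (up to 5 each way), up to 3 such genes of each partner list by their most abundant probe set, and the 5 genes most alike in pattern to Cap1 and to Zmpste24. Probe sets of one gene were kept apart. The members and lists were chosen with earlier results of these data known. Alternatives are given in the closing section. Figures used Python 3.11.15 and matplotlib 3.10.9.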

Additional observations from a re-analysis of the deposited data

Results flagged for a closer look

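Hivep3 1439660_at in transgenic 17 stood at 6.98 on the log2 scale, against 6.30 to 6.35 in the other 3 transgenic animals. Its gap to the nearest of them was 0.925 of the range of the group, above the critical value of Dixon's test for 4 samples. Such a value turns up by chance in about 1 of 20 groups, and 19 member probe sets were examined. Cap1 1417461_at in transgenic 84, at 0.822, lay just under that value.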

How the results depend on the processing

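The number of all probe sets called transgenic against wildtype was 4. It was 10 with 4 times the pseudocount, 2 with a filter at the 60th percentile, 9 with array 2 of wildtype 29 only, 44 with 8 arrays as separate samples, 11 with sex added and 0 under the Gapdh covariate, by limma (851 had an unadjusted p under 0.05). Leaving out 1 animal gave 0 (without wildtype 28) to 269 (without transgenic 11), with 2 without wildtype 26, 11 without transgenic 84 and 12 without transgenic 17. Member probe sets with separate and lower groups were 3 in place of 5 with the 60th percentile filter, which left fewer of them. Under the Gapdh covariate, other genes of the stretch at an unadjusted p under 0.05 went from 4 to 0 and partner probe sets from 24 to 5. Leaving out 1 animal gave 1 to 6 and 16 to 37. Leaving out 1 animal kept 5 to 6 member probe sets separate and higher and 5 separate and lower. The cause was not tested. The sex and interaction tests called 0 members under every alternative that could be fitted; without wildtype 29 the interaction could not be fitted. For Cap1 the differences ran from -5.96 to -4.06 and from -5.56 to -3.67, for Zmpste24 from 0.89 to 1.15, for Nfyc from 0.84 to 1.10, for Smap2 from 0.66 to 0.98, for Rlf 1427171_at from 0.89 to 1.14 and for Rhbdl2 1442819_at from -1.24 to -0.89, over 16 alternatives each with no change of sign. No paired analysis was possible because the groups share no replicate numbers.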

Other observations

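The genes flanking the stretch on chromosome 4 were looked at after the values had been seen. The 40 nearest genes before it with a probe set past the filter had 63 such probe sets. Groups did not overlap in 5 higher and 5 lower of them, 7.94% each, beside 4.58% and 6.71% over all probe sets. Of the 40 nearest genes after it, 68 probe sets gave 1 higher and 2 lower (1.47% and 2.94%). Limma called 0 probe sets on either side, with 10 before (15.9%) and 6 after (8.82%) at an unadjusted p under 0.05, beside 11.7% over all. Over the whole chromosome, 1393 probe sets gave 5.81% higher and 7.11% lower without overlap and 167 (12.0%) at an unadjusted p under 0.05. Limma called 1 of these 1393, beside 4 over all probe sets. It was not a member and lay in neither the stretch nor these flanks.

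Named after their values were seen, Med8, a subunit of the Mediator complex of transcription, gave 1.68 in 1 probe set and -0.01 in a brighter one before the stretch, and Btbd19 gave 1.14 and 0.37 in its probe sets. Ptprf, a receptor tyrosine phosphatase, had the lowest difference of either flank, -3.001 in 1 probe set (4.72, 8.51, 7.05 and 5.11 in transgenic 7, 11, 17 and 84 against 9.35 ± 0.11 in wildtype skin, SD, n = 3), and 0.13 and -0.10 in brighter ones. In the -3.001 probe set levels were lower in transgenic 7 and 84, which had the higher Gapdh ratios. The part of that ratio was not tested. Foxj3, a forkhead transcription factor, gave -1.51 in 1 probe set, with 6.48 ± 1.06 in transgenic (SD, n = 4) and 7.99 ± 0.15 in wildtype skin (SD, n = 3), and 0.19 in a brighter one. Transgenic 84 was the lowest in the dimmer Foxj3 probe set (4.95). After the stretch, Thrap3, a splicing-associated protein, gave -2.45 in 1 probe set, from 10.16 ± 0.22 in wildtype to 7.71 ± 0.92 in transgenic skin (SD, n = 3 and 4), and -0.67 and -0.04 in its others. In the -2.45 probe set transgenic 84 was nearest to wildtype (8.96).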
